A study of Homo sapiens with 18 samples.

Results

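The genes described here are 42 genes of G2 and mitosis: cyclins with their kinase and its activators, mitotic kinases, spindle checkpoint and kinetochore genes, kinesins and spindle factors, the chromosomal passenger complex, cytokinesis genes, and the anaphase ligase with its substrate. They were chosen by gene symbol, whatever their level. All 42 were found among the 57820 gene identifiers of the count table, and all 42 were among the 15307 genes with enough counts to be tested. Relative to the control siRNA, 0 of the 42 passed the test with siRagC1, and 1, the checkpoint gene BUB3, was lower with siRagC2. Of all tested genes, 0.627% were lower and 1.41% higher with siRagC1, and 1.36% lower and 1.87% higher with siRagC2. With the replicate number as a block, siRagC1 gave 3 of the 42 lower, BUB3, PRC1 and ANLN. With that block, siRagC2 gave 2 lower, BUB3 and ANLN, and 1 higher, CDC25B. The blocked fit called 361 of the 15307 genes lower and 503 higher with siRagC1, and 426 lower and 560 higher with siRagC2. The levels of the 42 moved together with the replicate number, by up to 1.51-fold between numbers 6 and 3 when averaged over the 3 groups.

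A dividing cell enters mitosis when cyclin B binds and activates CDK1, an activation opened by CDC25 phosphatases and reinforced by the kinases PLK1 and Aurora A. The spindle checkpoint then holds the anaphase-promoting complex (APC/C) in check until every kinetochore is attached to microtubules, after which CDC20 directs the complex to destroy cyclin B and securin. Transcripts of these genes accumulate in G2 and mitosis and are low in G1, through the MuvB complex with B-MYB and FOXM1 on promoter elements named CHR, and through NF-Y on CCAAT boxes.

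MDA-MB-231 is a cell line from a triple-negative breast cancer, which divides without estrogen. The study lowered RagC, a small GTPase that brings the growth kinase mTORC1 to the lysosome when amino acids are present. The groups were siRagC1 and siRagC2, cells given the first or the second of 2 siRNAs against RagC, and siCtrl, cells given a control siRNA. All 3 groups carried the unmodified (WT) genotype, received siRNA by lipofection for 72 hours, and gave 500 ng of total RNA per library. Each group had 6 libraries, numbered 1 to 6. The labels call them biological replicates without saying that they came from separate cultures, so a p-value here reflects sample-to-sample spread, which may be technical. Library codes began with D1103 for numbers 1 and 2 and with D1221 for numbers 3 to 6. The labels do not explain these code series.

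Libraries held between 14.8 M and 71.6 M counts. The 42 genes together took between 0.565% and 0.875% of library totals scaled for composition. RRAGC, the gene of RagC, had a log2 fold change of -1.43 with siRagC1 (edgeR adjusted p = 0.000373) and of -1.201 with siRagC2 (edgeR adjusted p = 0.00135), and was lower in every library of both than in every siCtrl library. VIM, a mesenchymal marker of the line, lay between 3860 and 5266 CPM, while ESR1, PGR and FOXA1 did not exceed 0.163 CPM. CPM are read counts scaled by library size and, for all genes but these cell markers, also by composition. Other genes of the same list were present, ERBB2 at 81.6 to 120.3 CPM, EPCAM at 13.2 to 18.9 CPM and GATA3 at 6.25 to 10.1 CPM. Markers of blood, vessel, fat and muscle cells did not exceed 1.02 CPM (CD14), and the muscle gene MYOD1 was at 0 in every library.

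Levels per length spanned 20.03-fold among the 42 genes with siCtrl. On the RPKM scale (CPM per kilobase of exon), CDC20, the activator of the APC/C, averaged 119 with siRagC1, 124 with siRagC2 and 129 with siCtrl, and UBE2C, the E2 enzyme of the same ligase, averaged 121 with siRagC1, 127 with siRagC2 and 124 with siCtrl. TPX2, which targets Aurora A to the spindle, averaged 96.7 with siRagC1, 96.7 with siRagC2 and 102 with siCtrl, and CCNB1, cyclin B1, averaged 96.1 with siRagC1, 98.4 with siRagC2 and 99.4 with siCtrl. At the other end stood CDC25C, a phosphatase that activates CDK1, with 6.22 with siRagC1, 6.28 with siRagC2 and 6.45 RPKM with siCtrl. The 42 genes thus held both abundant and scarce transcripts.

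The first comparison asks whether losing RagC lowered the mitotic transcripts. With siRagC1, 0 of the 42 genes were lower and 0 higher (edgeR quasi-likelihood test, Benjamini-Hochberg adjusted p under 0.05), where 0.627% of all tested genes were lower and 1.41% higher. At an unadjusted p under 0.05, 1 of the 42 was lower and 0 higher with siRagC1, against 7.81% and 9.26% of all genes. With siRagC2, 1 of the 42 was lower and 0 higher, where 1.36% of all genes were lower and 1.87% higher; at an unadjusted p, 1 was lower and 1 higher, against 8.58% and 9.93% of all genes. Averaging both siRNAs against siCtrl, 1 was lower and 0 higher, against 2.23% and 2.72% of all genes. This fit leaves the differences between replicate numbers in the spread that it tests against. In it, the counts at an adjusted p are near these backgrounds, and those at an unadjusted p are below the shares of all genes. With the replicate number as a block, the siRagC1 counts become 3 lower and 0 higher, where 361 of the 15307 genes were lower and 503 higher. The siRagC2 counts become 2 lower and 1 higher, described with CDC25B. With siRagC1, genes lower at an unadjusted p under 0.05 in the blocked fit were BUB3, PRC1, ANLN, CDCA8, KIF23, KIF2C and AURKA. ECT2, CDC20, TPX2, PLK1, BUB1B, CCNA2 and BUB1 were also lower there at that limit, and none was higher. The share of all genes at that limit in the blocked fit was not taken, so these genes have no background beside them. Both siRNAs were set against the same 6 control libraries, so their results are not independent of each other.

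The fold changes were small, and most lay below zero. With siRagC1, 38 of the 42 genes had a negative log2 fold change, with a median of -0.07, while 48.3% of all genes were below zero, with a median of 0.0051. With siRagC2, 29 of 42 were negative, with a median of -0.02, while 48.3% of all genes were below zero. Single values ran from -0.14 (PRC1) to 0.18 (CENPF) with siRagC1 and from -0.17 (BUB3) to 0.15 (CDC25B) with siRagC2. Over the 42 genes, the 95% intervals reached from -0.31 (KIF23) to 0.45 (CENPF) with siRagC1 and from -0.40 (MKI67) to 0.33 (CENPF) with siRagC2. In no gene of the 42 did the 6 libraries of an siRNA all lie below, or all above, the 6 controls; among all genes 0.314% lay below and 0.516% above with siRagC1, and 0.542% below and 0.601% above with siRagC2. These are bulk libraries, in which fewer cells in G2 and mitosis and less RNA per such cell cannot be told apart.

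**Figure D1:**
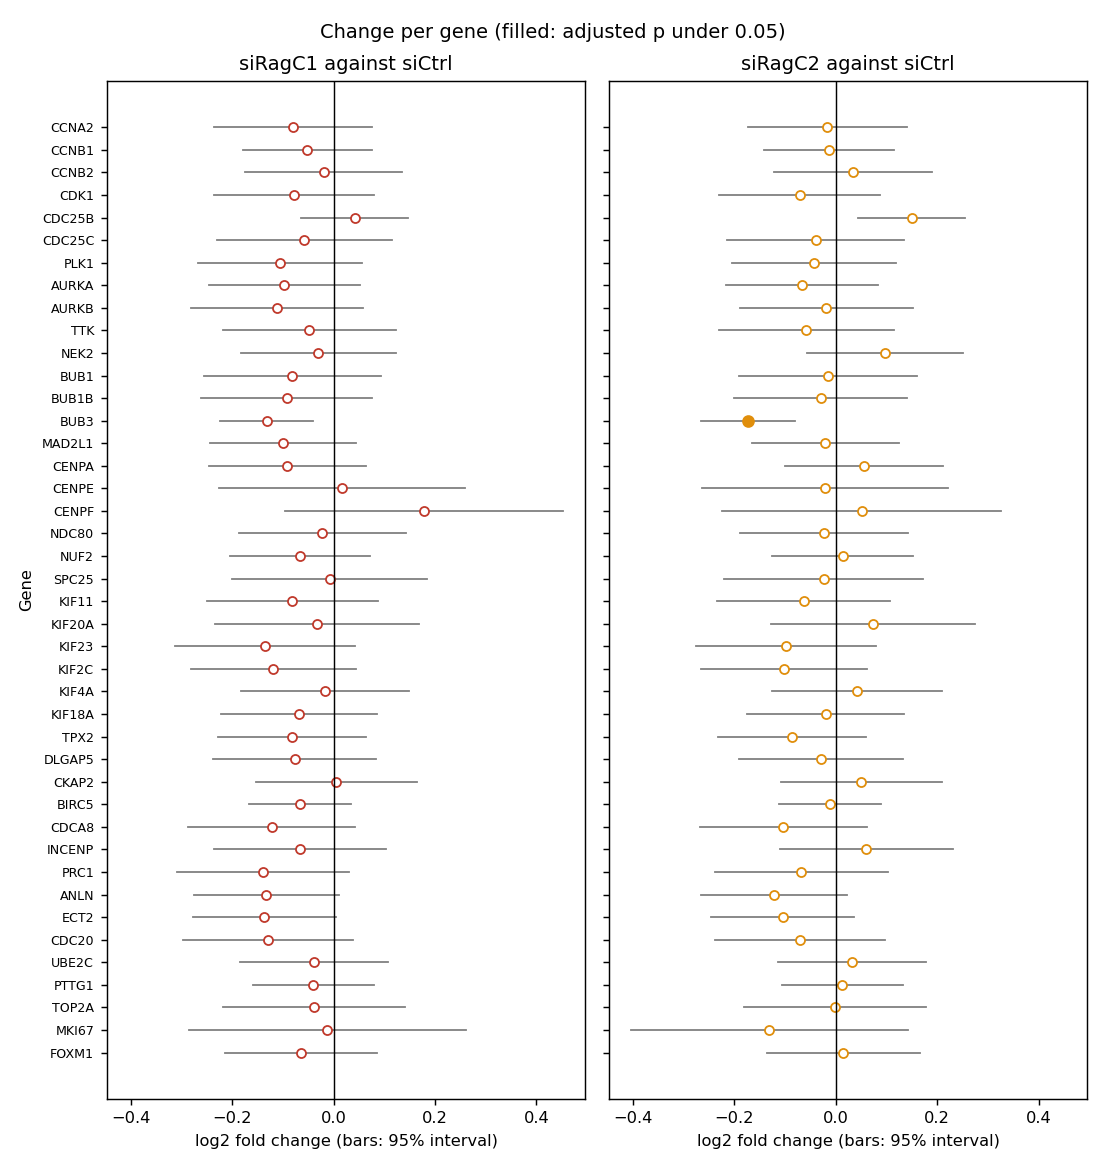
Log2 fold change of each of the 42 genes (rows, ordered by role) with siRagC1 against siCtrl (left) and siRagC2 against siCtrl (right), with 95% intervals; 6 libraries per group. The 1 filled point is BUB3 with siRagC2, at -0.17; the other points are open, and most lie left of zero.

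BUB3 belongs to the spindle checkpoint, where it carries BUB1 and BUBR1 to unattached kinetochores. Its libraries, in order of replicate number, held 304, 294, 353, 349, 378 and 393 CPM with siRagC1, and 277, 283, 357, 345, 370 and 388 CPM with siRagC2. With siCtrl they held 344, 327, 377, 383, 399 and 438 CPM. Each siRNA library was below the control of its own number, in 6 of 6 numbers for siRagC1 and 6 of 6 for siRagC2, but the groups overlapped because the numbers differed more than the siRNAs. BUB3 fell by 0.17 ± 0.04 on the log2 scale with siRagC2 (SE, edgeR adjusted p = 0.0331), a change in level of -11.3% (95% interval -16.8% to -5.47%). With siRagC1 its log2 fold change of -0.13 ± 0.04 missed the threshold (adjusted p = 0.117). With both siRNAs averaged BUB3 fell by 0.15 ± 0.04 (adjusted p = 0.0245). By code series, in one fit, siRagC2 libraries of D1103 gave -0.26 (adjusted p = 0.101, or 0.0118 with the D1103 libraries fitted alone) and those of D1221 gave -0.13 (adjusted p = 0.401), and the siRagC1 value was -0.17 in D1103 and -0.11 in D1221. Left out one at a time, 7 of the 12 siRagC2 and siCtrl libraries (siRagC2 replicates 1, 2, 3 and 4 and siCtrl replicates 1, 2 and 5) ended the siRagC2 call of BUB3, with adjusted p between 0.0554 and 0.105 and log2 fold changes between -0.18 and -0.15. The call on average ended without siCtrl replicate 1 or siCtrl replicate 2 (adjusted p between 0.0558 and 0.0962).

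The other checkpoint genes did not pass. MAD2L1, the MAD2 protein that binds CDC20, had log2 fold changes of -0.10 with siRagC1 and -0.02 with siRagC2, and BUB1B, which encodes BUBR1, had -0.09 with siRagC1 and -0.03 with siRagC2. The siRagC1 interval of MAD2L1 ran from -0.24 to 0.05 and that of BUB1B from -0.26 to 0.08.

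Among the cyclins, CDK1 and the CDC25 phosphatases, 0 of 6 genes passed with either siRNA. CCNB1 ran from 199 to 299 CPM with siRagC1 (median 250), from 210 to 304 with siRagC2 (median 254) and from 210 to 321 with siCtrl (median 250). The 3 ranges of CCNB1 covered each other almost fully, and its log2 fold changes were -0.05 (95% interval -0.18 to 0.08) with siRagC1 and -0.01 (-0.14 to 0.11) with siRagC2. CDK1, the kinase partner of cyclin B, ran from 97.1 to 151 CPM with siRagC1 (median 124), from 92.0 to 147 with siRagC2 (median 124) and from 107 to 169 with siCtrl (median 123). Its log2 fold changes were -0.08 (interval -0.24 to 0.08) with siRagC1 and -0.07 (-0.23 to 0.09) with siRagC2, with overlapping groups. CCNA2, cyclin A2, had a log2 fold change of -0.08 with siRagC1 and -0.02 with siRagC2, and CCNB2, cyclin B2, had -0.02 with siRagC1 and 0.03 with siRagC2. CDC25C had -0.06 with siRagC1 and -0.04 with siRagC2.

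CDC25B, the phosphatase that starts CDK1 activation at the centrosome, stood on the other side. It ran from 231 to 290 CPM with siRagC1 (median 282), from 269 to 321 with siRagC2 (median 300) and from 251 to 291 with siCtrl (median 264). In 0 of 6 numbers was the siRagC2 library below its control, and the groups still overlapped. Its log2 fold change was 0.15 ± 0.05 with siRagC2 (SE, edgeR adjusted p = 0.104) and 0.04 ± 0.05 with siRagC1 (adjusted p = 0.730). Same-numbered siRagC2 and siCtrl libraries deviated together, with correlations across genes between 0.116 and 0.492 in the 6 pairs. With the code series means removed too, these lay between -0.0382 and 0.204. With only group means removed, 3 of the 6 siRagC2 libraries correlated best with the control of their own number. With the replicate number as a block, CDC25B rose with siRagC2 (0.15 ± 0.04, adjusted p = 0.0314), ANLN fell by 0.12 ± 0.03 (adjusted p = 0.0445) and BUB3 fell by 0.17 ± 0.03 (adjusted p = 0.00387). That blocked fit thus called 2 of the 42 lower and 1 higher with siRagC2, where it called 2.78% of all genes lower and 3.66% higher.

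The mitotic kinases held 0 of 6 genes past the threshold with each siRNA. PLK1, which drives centrosome maturation and mitotic entry, ran from 94.4 to 126 CPM with siRagC1 (median 102), from 99.2 to 131 with siRagC2 (median 109) and from 106 to 127 with siCtrl (median 114). AURKA, Aurora A of the spindle poles, ran from 147 to 216 CPM with siRagC1 (median 168), from 147 to 210 with siRagC2 (median 176) and from 158 to 235 with siCtrl (median 179). The AURKA libraries were below the same-numbered control in 6 of 6 numbers with siRagC1 and 5 of 6 with siRagC2, and the ranges overlapped for both kinases. PLK1 had log2 fold changes of -0.11 with siRagC1 and -0.04 with siRagC2, and AURKA of -0.10 with siRagC1 and -0.07 with siRagC2. AURKB, TTK, NEK2 and BUB1 had siRagC1 values of -0.11 to -0.03 and siRagC2 values of -0.06 to 0.10.

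At the kinetochore and centromere, 0 of 6 genes passed with either siRNA. CENPF, a large kinetochore and nuclear-matrix protein, had the highest fold change of the 42 with siRagC1, at 0.18 (95% interval -0.10 to 0.45). It did not pass (SE 0.13, edgeR adjusted p = 0.519). With no filter on low counts the CENPF value was again 0.18, with an SE of 0.05 and an edgeR adjusted p of 0.0195. Keeping the low-count genes thus changed the estimated spread and not the fold change. By number, siRagC1 minus siCtrl was 0.08, 0.27, -0.04, 0.80, 0.04 and -0.07 for CENPF, so number 4 stood apart. Without siRagC1 replicate 4 the CENPF value was 0.11 (adjusted p = 0.742, and 0.413 with no filter), and without all 3 libraries of number 4 it was 0.05. Its highest library was siRagC1 replicate 4 with 416 CPM, against 291 in siRagC2 replicate 4 and 239.7 in siCtrl replicate 4. CENPE, a kinesin that moves chromosomes to the spindle equator, had 0.02 with siRagC1 and -0.02 with siRagC2. CENPA, the histone variant that marks centromeres, had -0.09 with siRagC1 and 0.05 with siRagC2. The NDC80 complex genes NDC80, NUF2 and SPC25, which grip microtubules, had siRagC1 values of -0.07 to -0.01 and siRagC2 values of -0.02 to 0.01.

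Of the 9 kinesin and spindle genes, 0 passed with either siRNA. KIF2C, a kinesin that takes microtubules apart at the centromere, ran from 129 to 188 CPM with siRagC1 (median 144), from 117 to 186 with siRagC2 (median 155) and from 139 to 204 with siCtrl (median 158). KIF23, a motor of the central spindle, ran from 79.2 to 135 CPM with siRagC1 (median 102), from 83.9 to 130 with siRagC2 (median 107) and from 92.9 to 151 with siCtrl (median 109). Both had the lower median in each siRNA group, with overlapping ranges. KIF2C had log2 fold changes of -0.12 with siRagC1 and -0.10 with siRagC2, and KIF23 of -0.14 with siRagC1 and -0.10 with siRagC2, with adjusted p between 0.442 and 0.608 in edgeR. TPX2 ran from 300.4 to 421 CPM with siRagC1 (median 330), from 281 to 407 with siRagC2 (median 348) and from 321 to 452 with siCtrl (median 352), with log2 fold changes of -0.08 with siRagC1 and -0.09 with siRagC2. With siRagC1 KIF11, KIF20A, KIF4A, KIF18A, DLGAP5 and CKAP2 lay between -0.08 and 0.01, and with siRagC2 these 6 lay between -0.06 and 0.07.

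The chromosomal passenger complex places Aurora B on centromeres and the midzone. CDCA8, which encodes its subunit borealin, ran from 76.5 to 110 CPM with siRagC1 (median 83.1), from 72.6 to 105 with siRagC2 (median 86.8) and from 82.6 to 113 with siCtrl (median 92.8). It was below the same-numbered control in 6 of 6 numbers with siRagC1 and in 6 of 6 with siRagC2, with overlapping groups. CDCA8 had log2 fold changes of -0.12 (95% interval -0.29 to 0.04) with siRagC1 and -0.10 (-0.27 to 0.06) with siRagC2. BIRC5, survivin, had -0.07 with siRagC1 and -0.01 with siRagC2, and INCENP, the scaffold, had -0.07 with siRagC1 and 0.06 with siRagC2.

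All 3 cytokinesis genes had negative fold changes with both siRNAs, and 0 of 3 passed in the fit without the block. ANLN, anillin of the cleavage furrow, ran from 361 to 543 CPM with siRagC1 (median 445), from 362 to 528 with siRagC2 (median 448) and from 404 to 633 with siCtrl (median 464). It was below its same-numbered control in 6 of 6 numbers with each siRNA. ANLN had log2 fold changes of -0.13 ± 0.07 with siRagC1 (SE, edgeR adjusted p = 0.336) and with siRagC2 of -0.12 ± 0.07 (adjusted p = 0.365). ECT2, the exchange factor that switches on RhoA at the furrow, ran from 195 to 297 CPM with siRagC1 (median 251), from 195 to 275 with siRagC2 (median 257) and from 214 to 348 with siCtrl (median 257). PRC1, which bundles the midzone microtubules, ran from 144 to 219 CPM with siRagC1 (median 164), from 150 to 222 with siRagC2 (median 178) and from 165 to 241 with siCtrl (median 178). The groups overlapped in all 3 genes. ECT2 had log2 fold changes of -0.14 with siRagC1 and -0.10 with siRagC2, and PRC1 of -0.14 with siRagC1 and -0.07 with siRagC2.

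The promoters of ANLN, ECT2, CDCA8 and KIF23 are shown because these genes had some of the smallest p-values after BUB3 and because they show the elements through which the group is known to be transcribed together. The sequences are from RefSeq (GRCh38.p14, plus strand), from 250 bases before to 50 after the gene's start. Capitals mark each match to a CHR, written TTTGAA or TTCGAA, or to a CCAAT box, written CCAAT, on either strand, so that TTCAAA and ATTGG are matches on the other strand.
ANLN: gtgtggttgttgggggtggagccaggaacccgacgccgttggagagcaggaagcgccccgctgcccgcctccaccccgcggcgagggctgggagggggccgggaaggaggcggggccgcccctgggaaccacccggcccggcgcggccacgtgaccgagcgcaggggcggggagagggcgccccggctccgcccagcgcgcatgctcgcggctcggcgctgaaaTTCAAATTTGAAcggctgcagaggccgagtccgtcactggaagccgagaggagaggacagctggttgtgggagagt
ECT2: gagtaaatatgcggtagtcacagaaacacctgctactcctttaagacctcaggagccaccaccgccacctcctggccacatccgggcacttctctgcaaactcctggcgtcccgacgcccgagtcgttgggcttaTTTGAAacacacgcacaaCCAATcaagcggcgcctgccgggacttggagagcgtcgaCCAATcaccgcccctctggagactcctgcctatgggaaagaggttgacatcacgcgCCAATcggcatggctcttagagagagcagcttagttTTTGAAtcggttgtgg
CDCA8: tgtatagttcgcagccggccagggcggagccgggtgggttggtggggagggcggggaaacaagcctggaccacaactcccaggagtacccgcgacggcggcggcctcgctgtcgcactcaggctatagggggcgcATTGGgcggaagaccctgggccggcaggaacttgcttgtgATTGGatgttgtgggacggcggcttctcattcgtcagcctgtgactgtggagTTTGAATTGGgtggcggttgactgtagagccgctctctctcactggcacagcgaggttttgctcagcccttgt
KIF23: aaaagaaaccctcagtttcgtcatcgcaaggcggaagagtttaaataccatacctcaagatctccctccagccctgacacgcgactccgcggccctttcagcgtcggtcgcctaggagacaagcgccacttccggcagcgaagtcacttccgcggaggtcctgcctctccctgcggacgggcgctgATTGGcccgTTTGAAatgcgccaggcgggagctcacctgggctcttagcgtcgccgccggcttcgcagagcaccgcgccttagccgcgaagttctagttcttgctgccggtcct
These windows are chr7:36389612-36389911 for ANLN, chr3:172750476-172750775 for ECT2, chr1:37692266-37692565 for CDCA8 and chr15:69414099-69414398 for KIF23. ANLN holds 2 CHR matches end to end and no CCAAT box, ECT2 holds 2 CHR matches and 3 CCAAT boxes, and CDCA8 holds 3 CCAAT boxes, the last of which shares a base with its CHR. In KIF23 a CCAAT box stands a few bases before a CHR.

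Of the 42 genes, 35 had a promoter window in the RefSeq table. A CHR match was present in 24 of these (68.6%), against 16.6% of the 27305 windows of all genes. A CCAAT box was present in 26 (74.3%), against 35.7% of all windows, and 16 windows (45.7%) held at least 2, against 11.3%. Both elements stood together in 20 windows (57.1%), against 6.58%. E2F-type letters, searched as TTTGGCGC, TTTCCCGC, TTTGCCGC and TTTCGCGC on both strands, were present in 2 windows (5.71%), those of CDK1 and CENPA, against 3.33% of all windows. The windows of CDC25B, CDC25C, KIF2C, CENPE and CKAP2 held none of these letters. A match describes letters only and says nothing of a factor's binding in these cells.

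**Figure D2:**
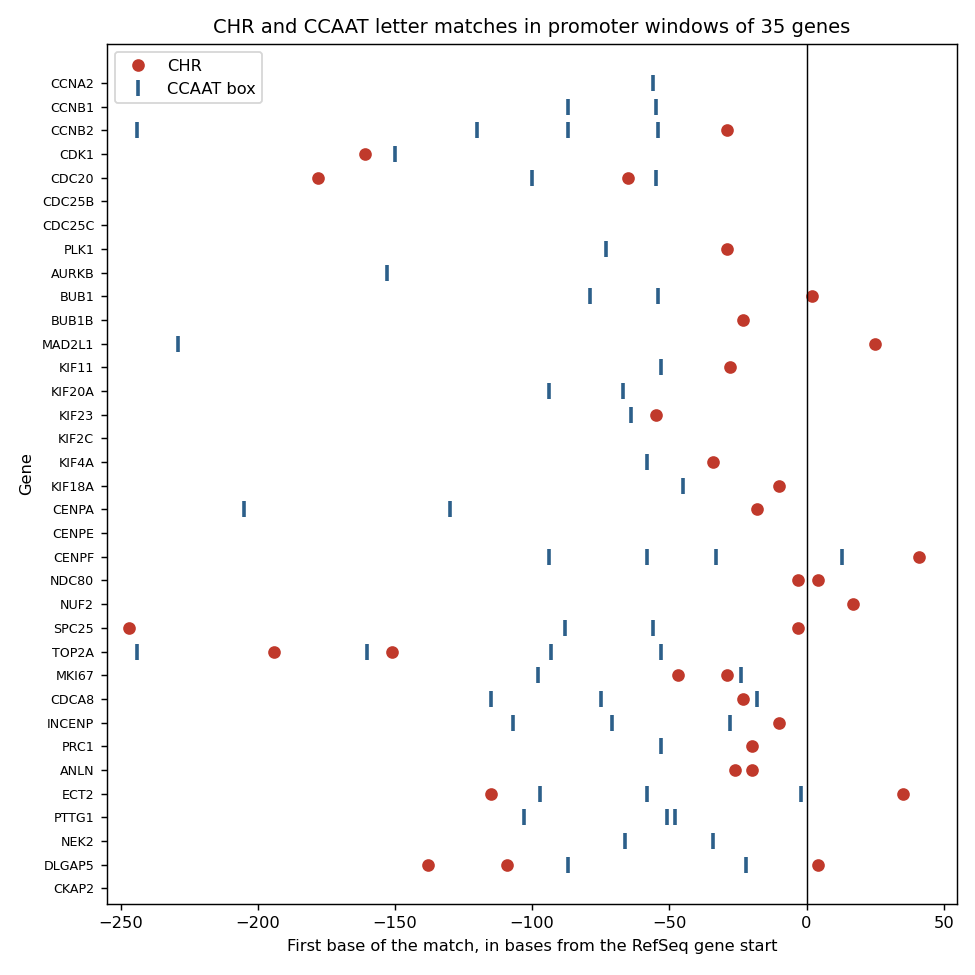
Position of CHR matches (red points) and CCAAT boxes (blue bars), in bases from the RefSeq gene start (vertical line), in the promoter windows of 35 of the 42 genes. Most matches lie within the last 100 bases before the start, and 24 windows hold a CHR and 26 a CCAAT box.

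The APC/C activator, its E2 enzyme and securin held 0 of 3 genes past the threshold. CDC20 ran from 195 to 304 CPM with siRagC1 (median 231), from 203 to 306 with siRagC2 (median 243) and from 239 to 292 with siCtrl (median 260). Its siRNA libraries of numbers 1 and 2 were lowest, with 207 and 195 CPM in siRagC1 and 218 and 203 CPM in siRagC2, against 239 and 256 CPM in siCtrl. CDC20 had log2 fold changes of -0.13 (95% interval -0.30 to 0.04) with siRagC1 and -0.07 (-0.24 to 0.10) with siRagC2. Within code series D1103 the siRagC1 value of CDC20 was -0.30 (edgeR adjusted p = 0.398, or 0.0111 with the D1103 libraries fitted alone), and within D1221 it was -0.04; the difference between the series, -0.26 with an interval from -0.61 to 0.08, did not pass. UBE2C had -0.04 with siRagC1 and 0.03 with siRagC2, and PTTG1, which encodes securin, had -0.04 with siRagC1 and 0.01 with siRagC2.

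TOP2A, the topoisomerase that untangles sister chromatids, ran from 433 to 705 CPM with siRagC1 (median 546), from 439.8 to 672 with siRagC2 (median 559) and from 427 to 781 with siCtrl (median 536). MKI67, the proliferation mark Ki-67 that coats mitotic chromosomes, ran from 345 to 572 CPM with siRagC1 (median 440), from 348 to 534 with siRagC2 (median 368) and from 366 to 584 with siCtrl (median 406). FOXM1, a transcription factor of the group's own promoters, ran from 197 to 272 CPM with siRagC1 (median 239), from 229.6 to 284 with siRagC2 (median 242) and from 222 to 261 with siCtrl (median 255). The groups overlapped in all 3 genes. TOP2A had log2 fold changes of -0.04 with siRagC1 and -0.0021 with siRagC2, MKI67 of -0.01 with siRagC1 and -0.13 with siRagC2, and FOXM1 of -0.06 with siRagC1 and 0.01 with siRagC2. The interval of MKI67 was wide, from -0.29 to 0.26 with siRagC1 and from -0.40 to 0.14 with siRagC2. By number, siRagC1 minus siCtrl was -0.09, -0.15, -0.22, 0.54, -0.13 and -0.03 for MKI67. Without siRagC1 replicate 4 its siRagC1 value was -0.05, and without the 3 libraries of number 4 it was -0.12 (edgeR adjusted p = 0.713).

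Set against each other, siRagC1 and siRagC2 differed for 0 of the 42 genes in edgeR, as for 0% of all genes, and 1 of the 42, CDC25B, was lower with siRagC1 at an unadjusted p under 0.05, against 3.61% of all genes lower and 4.15% higher. CDC25B had a log2 difference of -0.11 (95% interval -0.21 to -0.0029, adjusted p = 0.630), siRagC1 over siRagC2. DESeq2 and limma-voom also gave 0 of 42. Over the 42 genes the median log2 difference was -0.05, and 34 were negative.

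The levels of the 42 genes followed the replicate number. Summed over the 42, number 6 held 8248 CPM in siRagC1, 8052 in siRagC2 and 8746 in siCtrl, and number 3 held 6352 in siRagC1, 6548 in siRagC2 and 6606 in siCtrl. Number 5 held 7588 CPM in siRagC1, 7796 in siRagC2 and 7689 in siCtrl, and number 4 held 6888 in siRagC1, 6896 in siRagC2 and 6764 in siCtrl. For numbers 3 to 6, the ranges over the 3 groups did not overlap between numbers, while siRNA and control libraries of 1 number lay within 694 CPM of each other. In code series D1103, number 1 held 5650.3 CPM in siRagC1, 5742 in siRagC2 and 6085 in siCtrl, and number 2 held 5727 in siRagC1, 6043 in siRagC2 and 6221 in siCtrl, so the siRNA libraries of both numbers were below their control. In siCtrl, depth fell from number 3 to number 6 as the sum rose, with 21.6 M, 21.2 M, 19.1 M and 18.95 M counts. The siCtrl libraries of numbers 1 and 2, with the lowest siCtrl sums, held 29.5 M and 44.3 M. With the siRNAs, depth did not fall steadily from number 3 to number 6. Those libraries held 55.4 M, 23.5 M, 22.9 M and 38.2 M in siRagC1, and 71.6 M, 21.6 M, 14.8 M and 17.2 M in siRagC2. What set the numbers apart was not tested.

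**Figure D3:**
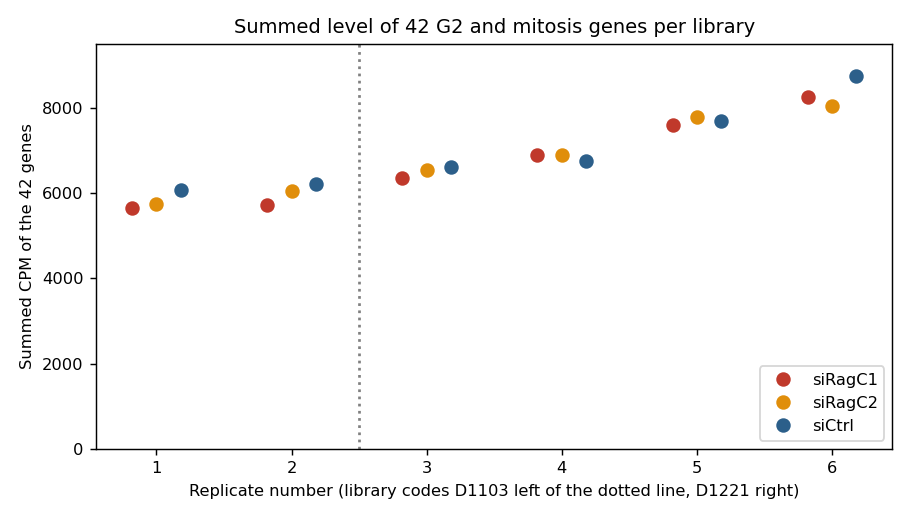
Summed CPM of the 42 genes in each of the 18 libraries, by replicate number, for siRagC1 (red), siRagC2 (orange) and siCtrl (blue). The 3 libraries of a number lie close together, from 5650 to 6085 CPM for number 1 and from 8052 to 8746 for number 6.

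The contrast of numbers 6 and 3, chosen after these sums were seen, shows how widely the genes took part. In 40 of the 42 genes all 3 libraries of number 6 lay above all 3 of number 3, against 12.6% of all genes (13% lay below), and the exceptions were CDC25B and INCENP. Averaged over the groups, number 6 over number 3 was 1.51-fold for CENPF, 1.496-fold for MKI67 and 1.38-fold for TOP2A. It was 1.30-fold for CDK1, 1.25-fold for CCNB1 and 1.203-fold for FOXM1, and lowest at 1.06-fold for CDC25B. Between the code series, 17 of the 42 genes had all 6 D1103 libraries below all 12 D1221 libraries, against 6.09% of all genes. These 17 included CCNB1, CDK1, TOP2A, ANLN and BUB3.

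**Figure D4:**
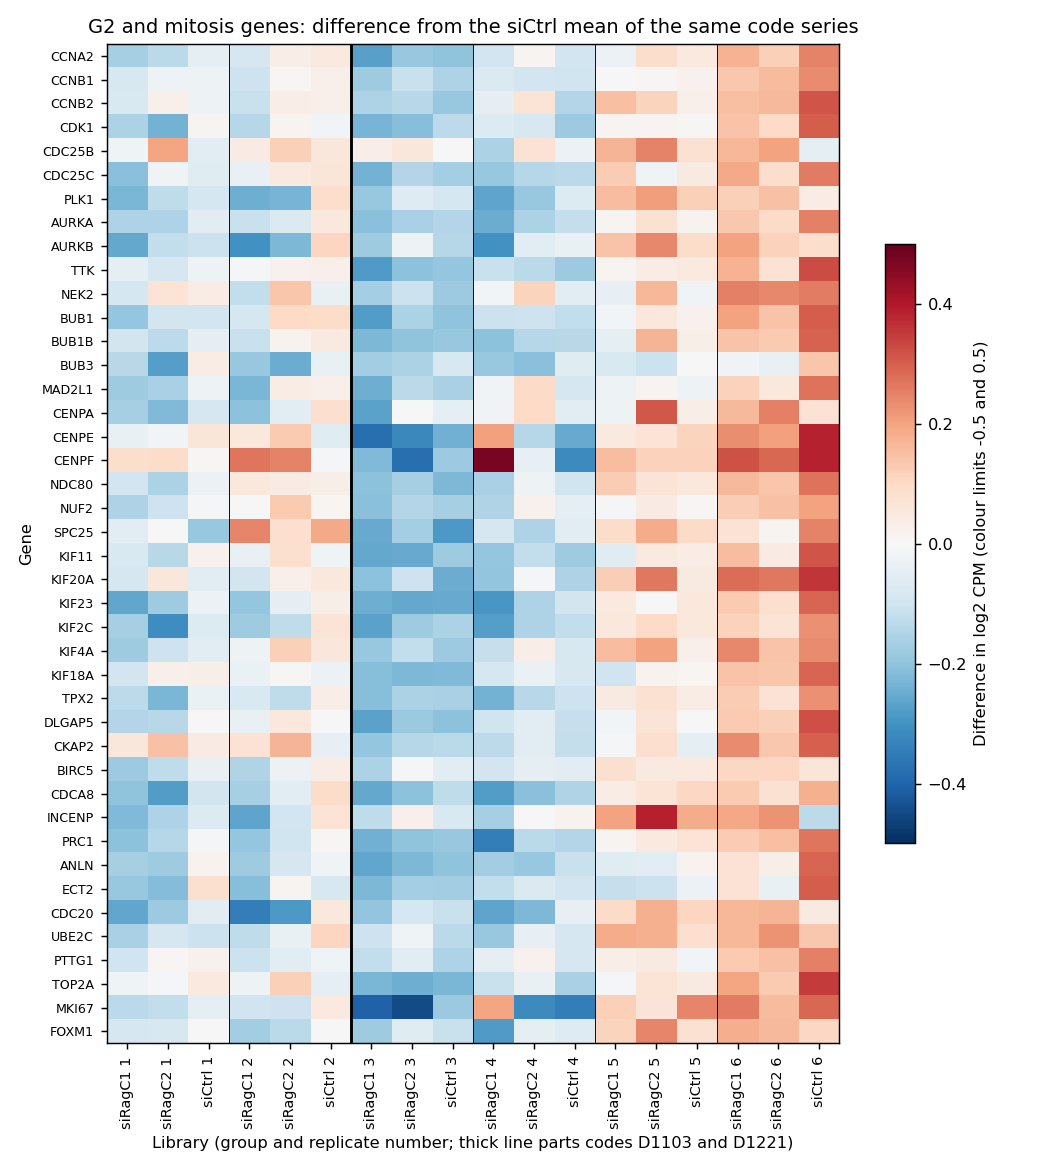
Difference in log2 CPM of each of the 42 genes (rows) in each of the 18 libraries (columns, grouped by replicate number) from the siCtrl mean of the same code series. Nearly whole columns share a colour: numbers 3 and 4 are mostly blue (lower) and number 6 is mostly red (higher) in siRagC1, siRagC2 and siCtrl alike.

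Gene by gene, the sum of squares of log2 CPM over the 18 libraries was divided between code series, number within series, siRNA group and the rest. For the 42 genes the medians were 53.4% for the series, 33.5% for the number, 4.08% for the group and 5.44% for the rest. Over all tested genes they were 23.4%, 19.1%, 10.3% and 33.7%. Each share is of the gene's own total, so a small group share need not mean a small siRNA effect. The group's 4.08% stood beside 5.44% for the rest in the 42 genes, and its 10.3% beside 33.7% over all genes. CCNB1 had 73.1% in the series, 24.2% in the number and 1.09% in the group. The group's share was highest in CDC25B (30.4%), CENPA (17.8%) and BUB3 (17.2%) and was at most 11.4% in the other genes (INCENP). FOXM1 and PLK1 had little in the series, 1.31% for FOXM1 and 2.97% for PLK1, and much in the number, 72.4% for FOXM1 and 64.6% for PLK1.

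**Figure D5:**
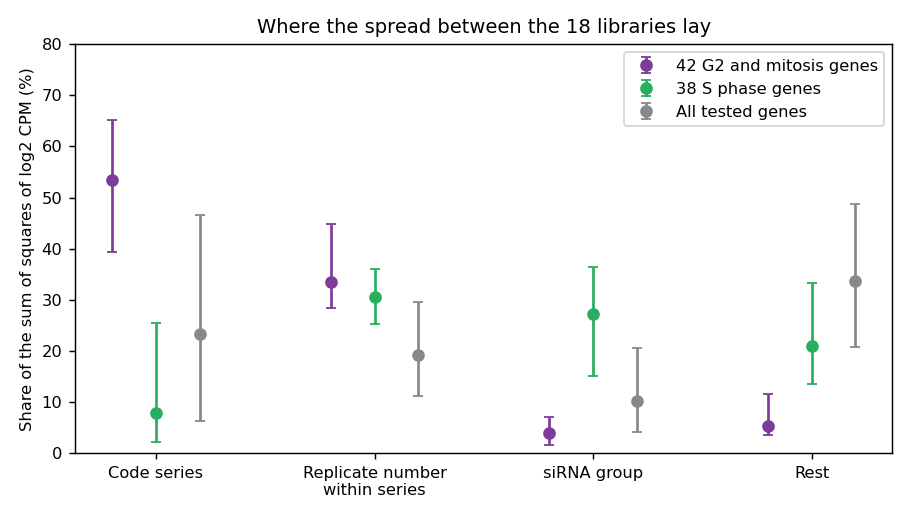
Share of the sum of squares of log2 CPM, in percent, that lay between code series, between replicate numbers within a series, between siRNA groups and in the rest (points: medians; bars: quartiles) for the 42 genes (purple), 38 S phase genes (green) and all 15307 tested genes (grey). The siRNA group has 4.08% for the 42 genes and 27.2% for the S phase genes, beside 5.44% and 20.9% for the rest.

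With code series and group means removed, the 42 genes kept moving together. The median correlation over their 861 pairs was 0.808 across the 18 libraries, and 100% of the pairs were positive, while the pairs of all tested genes had a median of -0.00192. These points share libraries and scaling, and the values are descriptive. TTK, a checkpoint kinase, followed the others most closely (median r of 0.899), and CDC25B (0.397), INCENP (0.469) and PLK1 (0.614) least. With the replicate number removed too, the median was 0.331, and 75.5% of the pairs were positive. With the group removed but the number left in, the median was 0.875 in the 12 D1221 libraries alone and 0.388 in the 6 D1103 libraries alone.

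By code series, the siRNA values of the 42 genes lay further below zero in D1103. The median log2 fold change was -0.12 in D1103 and -0.04 in D1221 with siRagC1, and with siRagC2 it was -0.05 in D1103 and -0.02 in D1221. In the fit of all 18 libraries 0 of the 42 genes passed within either series, where 0.0915% of all genes were lower and 0.281% higher with siRagC1 in D1103, and 0.764% were lower and 0.738% higher with siRagC2 in D1103. In D1221 these shares were 0.00653% and 0.0196% with siRagC1, and 0.00653% and 0.0131% with siRagC2. With the D1103 libraries fitted alone, 2 of the 42 were lower with siRagC1 (CDC20 and AURKB) and 2 with siRagC2 (CDC20 and BUB3), and 0 were higher. That fit called 1.3% of all genes lower and 2.12% higher with siRagC1, and 3.28% lower and 3.82% higher with siRagC2. The effect differed between the series for 0 of the 42 genes in edgeR with either siRNA, with 0 at an unadjusted p under 0.05 (where 0.986% of all genes were lower and 1.04% higher for siRagC1, and 3.38% lower and 3.27% higher for siRagC2), and for 0 in DESeq2. RRAGC itself was at 12.3 to 21.6 CPM in the siRNA libraries of D1103 and at 21.8 to 40.8 CPM in those of D1221. Taken by number, the median difference of the 42 genes between siRagC1 and its same-numbered control was -0.11, -0.13, -0.06, -0.04, -0.0036 and -0.10 for numbers 1 to 6. For siRagC2 it was -0.08, -0.02, 0.02, 0.03, 0.04 and -0.14, so numbers 3, 4 and 5 lay above zero.

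Other genes of the same phases were listed beside the 42. Of 46 further G2 and mitosis genes, 0 were lower and 0 higher with siRagC1, with siRagC2 and on average, with medians of -0.09, -0.03 and -0.06. At an unadjusted p under 0.05, 7 of these were lower and 0 higher with siRagC1, and 2 were lower and 1 higher with siRagC2. Of 38 other kinetochore and condensin genes, 0 passed with siRagC1 and 1 was lower with siRagC2, MIS12, a subunit that links the inner and outer kinetochore (-0.21, adjusted p = 0.0279). Of all genes, 0.627% were lower with siRagC1, 1.36% with siRagC2 and 2.23% on average. On average 3 of those 38 were lower, MIS12 (-0.20), MIS18A, which licenses CENPA loading (-0.28), and SKA3, which tracks microtubule ends (-0.23). Of 15 APC/C subunits and of 14 DREAM and MuvB regulators, 0 passed in any of these comparisons, with medians between -0.11 and -0.03. With the block, siRagC2 had 9 of the 38 kinetochore and condensin genes lower and 1 higher, and 0 of the 46 lower and 1 higher, against 2.78% of all genes lower and 3.66% higher.

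Genes of S phase were listed for comparison. Of 38 tested S phase genes, 2 were lower with siRagC1, 7 with siRagC2 and 10 on average, and 0 were higher, with medians of -0.17, -0.18 and -0.19 and 37 of 38 values below zero in each. With the block, 13 were lower with siRagC2. The lower genes on average included MCM6, of the replicative helicase (-0.24 ± 0.05 (SE), edgeR adjusted p = 0.00943), MCM10 (-0.33 ± 0.07), the origin licensing factor CDC6 (-0.31 ± 0.07), the sliding clamp PCNA (-0.23 ± 0.05), CCNE2, cyclin E2 (-0.33 ± 0.08), and POLE2, of the leading-strand polymerase (-0.21 ± 0.05). Their variance shares were 7.86% for the code series, 30.5% for the number and 27.2% for the group. Whether the siRNA changed S phase genes more than the 42 was not tested.

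Of 14 tested genes of p53 and quiescence, 0 passed with siRagC1. CDKN1B, the CDK inhibitor p27, rose with siRagC2 (0.30 ± 0.05 (SE), edgeR adjusted p = 0.00185), and SESN1, a p53 target that restrains mTORC1, fell by 0.51 ± 0.12 (adjusted p = 0.0259). On average CDKN1B and CDKN1C, the inhibitor p57, rose, by 0.20 and 0.39. With the block, 2 of the 14 were lower and 2 higher with siRagC2.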

How the data were processed

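RNA-seq libraries numbered 18, with 6 each for siRagC1, siRagC2 and siCtrl in MDA-MB-231 cells. The authors deposited raw read counts per gene in 1 table. The tools cutadapt 0.6.2 and STAR 2.7.6a and the build GRCh37/hg19 are those that the submitters' processing notes name. How reads were counted, with which strand setting and annotation, is not stated, so reads of a gene and of an antisense partner cannot be told apart. Groups and numbers came from the labels, and the code series from the library codes.

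Counts were analysed with edgeR 4.0.16 in R 4.3.3 on genes kept by its default filter (15307 genes), with TMM scaling, code series and group as terms, all 18 libraries in one fit, a robust quasi-likelihood F test and Benjamini-Hochberg adjustment over all tested genes at 0.05. CPM used TMM-scaled totals, except for the cell markers, which used unscaled library totals, and log2 CPM used a prior count of 2. RPKM used GENCODE exon lengths of GRCh38, a build other than the authors', and serve only to set genes side by side. Alternatives used DESeq2 1.42.0, limma 3.58.1, other scaling, filters and samples, and a replicate block. No library duplicated another of its group in the pairs for which the check gave a value. It gave none for numbers 1 and 2 of siRagC1, and for numbers 1 and 2 and numbers 5 and 6 of siRagC2.

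Replicate numbers come from the labels. With group means removed, same-numbered libraries correlated across genes at between 0.116 and 0.492 for siRagC2 with siCtrl. For siRagC1 with siCtrl they correlated at between 0.0765 and 0.610, where 1 pair missed the limit of 0.1 set for taking numbers as pairs. The blocked fit is given for both siRNAs.

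The genes, lists and tests were chosen with earlier results of these data known. Named with full values were each gene called in a comparison, those with the smallest p of the averaged comparison, and 1 or 2 genes per role; 17 in all. Of 167 listed comparison genes, 166 matched (UHRF1 did not), and BTG2 had too few counts. Tested on simulated data over 15307 genes, the fit recovered 26 of 50 genes changed 1.2-fold with siRagC1 against siCtrl, and 21 of 50 with siRagC2. Of genes changed 1.5-fold it recovered 45 of 50 with each siRNA. The changed genes were drawn at random and had no factor shared by a replicate number, so these rates need not hold for the 42. The changes of the 42 genes were smaller than 1.2-fold.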

Additional observations from a re-analysis of the deposited data

Results flagged for a closer look

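Of 132 sets of 6 libraries examined (the 42 genes, their sum and RRAGC in each group), 1 held a library far from the others, where chance gives about 5%. RRAGC, the gene of RagC, had 67.9 CPM in siCtrl replicate 1, against 60.6 to 62.2 CPM in the other siCtrl libraries. None of the 42 genes, nor their sum, had such a library in any group by this rule. The rule divides a library's gap by the range of its 6 libraries, which holds the differences between numbers. It therefore cannot decide whether a library stood apart from the others of its number. At number 4, siRagC1 minus siCtrl was 0.80 for CENPF and 0.54 for MKI67 on the log2 scale.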

How the results depend on the processing

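Over 3026 values of the 17 named genes under other settings, 2926 stayed on the same side of the threshold, 76 came to pass it and 24 no longer did; 0 reversed, and 117 changed sign while past the threshold in neither. Of these 17, those other than BUB3 that came to pass against siCtrl in some setting were ANLN, AURKA, CDC20, CDC25B, CDCA8, KIF23, KIF2C, MKI67, PLK1, PRC1 and TPX2. BUB3 kept a negative value with siRagC2 in 45 of 45 alternatives (-0.26 to -0.13) and passed in 30.

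The replicate block gave 3 genes lower with siRagC1 (BUB3, PRC1 and ANLN), 2 lower and 1 higher with siRagC2, and 4 lower on average (BUB3, ANLN, CDCA8 and PRC1); of the 15307 tested genes it called 361 lower with siRagC1 and 627 on average. With DESeq2 these counts were 6, 2, 1 and 7, and with limma-voom 4, 2, 1 and 5. The shares of all genes that these tools called are not given here, so their counts have no background beside them. The labels number the 3 groups alike but do not call same-numbered libraries pairs. For both siRNAs the pairing is thus a hint from the data. Of 6 libraries, 5 with siRagC1 and 3 with siRagC2 correlated best with the siCtrl library of their own number, with only group means removed. Differences between the code series remain in these matches. With code series means removed, the lowest correlation was -0.0745 for siRagC1 and -0.0382 for siRagC2. With the block, 18 S phase genes were lower with siRagC1, 13 with siRagC2 and 22 on average; of 38 kinetochore and condensin genes 7, 9 and 13 were lower, and of 46 other G2 and mitosis genes 5, 0 and 7. Without a series term, 0 were lower with siRagC2 and 0 on average, and with the compared groups alone 0 with siRagC2. With no filter on low counts, 1, CENPF, was higher with siRagC1, at the same 0.18 but with an SE of 0.05 instead of 0.13. At an adjusted p under 0.01, 0 were lower with siRagC2 and 0 on average.

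D1103 libraries alone gave 2 lower with siRagC1, 2 with siRagC2 and 4 on average, against 1.3%, 3.28% and 3.26% of all genes. With the block they gave 7, 5 and 11 lower, against 4.32%, 6.7% and 6.96% of all genes. In each comparison with siCtrl 1 was then higher, against 5.5%, 7.69% and 7.75% of all genes. The siRagC1 median was -0.12 with and without the block. D1221 alone, with or without the block, gave 0 lower with siRagC2 and 0 on average. Leaving out libraries or numbers one at a time, with or without the block, gave 0 to 9 lower with siRagC1 (1 without replicate 6, and 9 with the block without replicate 6), 0 to 2 with siRagC2, 0 to 6 on average and 0 to 3 for siRagC1 against siRagC2, and 0 to 1 higher with siRagC2. The shares of all genes in these fits are not given, so these counts cannot be set against a background. The siRagC1 median ranged from -0.12 to -0.02 (-0.0170 without siCtrl replicate 6) and the median of siRagC1 against siRagC2 from -0.0903 (without siRagC1 replicate 6) to -0.0146 (without siRagC1 replicate 3). The E2F-type count was 1 in a window from 150 bases before the start. These causes were not tested. How far depth limits small differences was not tested.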

Other observations

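In siRagC1 replicate 4, a library of 23.5 M counts, 6 of the 42 genes stood above both other libraries of their number, 3 of them (CCNB1, CDK1 and TTK) by at most 1.02-fold and MKI67, CENPF and CENPE by 1.43-fold, 1.43-fold and 1.27-fold over the higher of the others. MKI67 held 548 CPM there, against 383 in siRagC2 replicate 4 and 376 in siCtrl replicate 4. CENPF held 416, against 291 CPM in siRagC2 replicate 4 and 239.7 CPM in siCtrl replicate 4, and CENPE held 169, against 132 CPM in siRagC2 replicate 4 and 123 CPM in siCtrl replicate 4. In the same library 39 of the 42 genes lay below the siCtrl mean of the code series. These genes and this library were chosen after their values were seen, and no cause was tested.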
